A study of Rattus norvegicus with 6 samples.

Results

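Genes of the sarcomere's response to mechanical stress, 8 in number, were examined in rat heart primordia before and after heartbeat initiation. They were Ankrd1, the LIM domain genes Csrp3, Fhl1, Fhl2, Pdlim3 and Pdlim5, and the small heat shock protein genes Cryab and Hspb7. They were chosen by name, with earlier results of these data known. Every probe of the array, other than control probes, that carried one of these 8 names was taken, which gave 10 probes on 26 spots of each array, out of 22094 named genes on the array. The study asked how the heart primordium changes when it starts to beat, and compared global gene expression between 2 groups of Wistar (Wister in the labels) rat embryos at E10 (embryonic day 10). In the pre-heartbeat group, heart primordia had a flat center in embryos with fewer somites, and in the post-heartbeat group they had a raised center in embryos with more somites. Each group had 3 samples, described as biological replicates, with 1 array per sample, and the labels name no treatment or genetic change in either group. The groups were set by shape and somites, so beating and developmental stage cannot be told apart. The tissue was not divided into the first and second heart fields, and whether embryos were pooled for a sample is not given in the sources used here.

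The sarcomere is the contractile unit of striated muscle, and its ends, the Z-discs, anchor the thin filaments and titin and bear the force of every contraction. LIM domains are zinc-binding modules through which proteins hold on to one another, and several LIM proteins of the Z-disc and I-band also move to the nucleus and act on transcription. Small heat shock proteins bind partly unfolded proteins, and in striated muscle they protect filament proteins under load. In the adult heart many of these genes are known for their response to pressure overload, and mutations in CSRP3, FHL1 and CRYAB cause inherited muscle disease.

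Promoters of 4 of the 8 genes were found in a RefSeq table for the GRCr8 rat genome, with 6 annotated starts (Hspb7, Pdlim5, Fhl1 and Fhl2). Ankrd1, Csrp3, Cryab and Pdlim3 had no match in it. The windows were searched on both strands from 250 bases before to 50 bases after each start for the MCAT element (CATTCC, bound by TEAD factors), the CArG box (bound by SRF), the heat shock element (GAANNTTC), the GATA motif (AGATAA), the MEF2 motif and the hypoxia response core (ACGTG). The 4 windows with any match are shown, because TEAD, SRF, MEF2 and GATA factors are known regulators of muscle genes. Each is printed 5′ to 3′ in the direction of the gene over the 250 bases before the start, with the matches in capitals.
Hspb7, chr5:159010509-159010758, plus strand: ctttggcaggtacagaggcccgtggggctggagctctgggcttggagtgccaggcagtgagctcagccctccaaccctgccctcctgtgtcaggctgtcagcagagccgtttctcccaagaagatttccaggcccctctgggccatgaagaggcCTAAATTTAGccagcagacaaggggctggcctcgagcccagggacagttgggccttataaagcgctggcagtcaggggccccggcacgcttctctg
Fhl2, chr9:52954541-52954790, minus strand: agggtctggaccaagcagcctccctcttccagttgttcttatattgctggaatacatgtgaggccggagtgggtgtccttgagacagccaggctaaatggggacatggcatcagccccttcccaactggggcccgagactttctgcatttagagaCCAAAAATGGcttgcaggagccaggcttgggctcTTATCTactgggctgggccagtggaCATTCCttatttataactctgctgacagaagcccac
Fhl2, second start, chr9:52923327-52923576, minus strand: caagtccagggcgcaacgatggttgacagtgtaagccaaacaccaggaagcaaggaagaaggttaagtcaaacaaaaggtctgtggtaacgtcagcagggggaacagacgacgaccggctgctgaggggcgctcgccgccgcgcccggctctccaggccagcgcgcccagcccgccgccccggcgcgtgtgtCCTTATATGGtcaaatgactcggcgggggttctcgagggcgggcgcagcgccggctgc
Fhl1, chrX:139638246-139638495, plus strand: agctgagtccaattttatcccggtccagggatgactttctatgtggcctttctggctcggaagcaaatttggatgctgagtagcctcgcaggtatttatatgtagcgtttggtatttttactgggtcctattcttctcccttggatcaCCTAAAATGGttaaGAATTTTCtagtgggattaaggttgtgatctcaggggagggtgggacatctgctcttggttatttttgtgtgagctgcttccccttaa

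The capitals in Hspb7 are a MEF2 motif from -96 to -87 relative to the start, a motif held by 0.565% of the 33469 promoters of the table. Hspb7 also had ACGTG on the other strand from 15 to 19 after the start, a core held by 19.3% of promoters. Both starts of Fhl2 had a CArG box, from -95 to -86 and from -58 to -49, and the first start of Fhl1 had one from -102 to -93, where 1.64% of all promoters hold one. The first start of Fhl2 further had a GATA motif on the other strand from -61 to -56 (11.6% of promoters) and an MCAT element from -36 to -31 (14.2%). The stretch ttatttataa directly after this MCAT element was not counted by the MEF2 pattern used. Broader forms of the MEF2 motif were not searched, so Hspb7 is not shown to be alone in having one. The heat shock element of Fhl1, from -88 to -81, is held by 8.59% of promoters. The window of Pdlim5 and the other window of Fhl1 held none of the 6 motifs as searched. A match describes letters in a window, and binding was not measured here.

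Each array had 58717 spots that were not controls, of which 39375 to 41327 were well above background and 0 were saturated. Signals are given as log2 of the processed signal after subtraction of the 75th percentile of that array, so that 0 is the level of that percentile and a difference of 1 is a doubling. A level holds for 1 probe and is not compared between genes. The arrays came from 2 slides, with post-heartbeat replicates 1 and 2 and pre-heartbeat replicate 1 on slide 1 and the remaining 3 arrays on slide 2. The slides were separated by the first principal component (60.2% of the variance) and the groups by the second (16.6%). Both slides held both groups, so each difference was also estimated in a fit that included the slide as a block, called the blocked fit. Of the 10 probes, 9 were well above background on all 6 arrays and were tested, and they cover all 8 genes. The remaining probe, the second one of Pdlim3, was well above background on 0 of 6 arrays.

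Taken over the 8 genes, the mean signal was higher in the post-heartbeat group for 8 of 8, by 1.19 fold for Pdlim5 to 2.50 fold for Hspb7, with a median log2 fold change of 0.62. Of all 19300 tested probes, 44.7% had a higher mean after heartbeat initiation, and their median log2 fold change was -0.03. The 8 genes were chosen with earlier results of these data known, so shares over all probes are given as a description. None of the 8 genes passed a limma adjusted p under 0.05 without a block (0 of 8, against 0.124% of all tested probes called higher and 0.0207% called lower), nor in the Tukey HSD test after adjustment, while 6 of 8 had an unadjusted limma p under 0.05, against 6.99% of all tested probes. In the blocked fit, Ankrd1, Csrp3, Pdlim3 and Hspb7 rose (4 of 8, against 1.09% of probes called higher and 0.42% called lower), and the median log2 fold change was 0.73. The selection of the study's methods, at least 1.5 fold together with a Tukey HSD p under 0.05 before adjustment, held Ankrd1, Csrp3, Fhl2 and Hspb7 (4 of 8, against 1.9% of probes selected as higher). With any 1 array left out, Ankrd1 and Hspb7 were still selected, Fhl2 was not when pre-heartbeat replicate 1 or any post-heartbeat replicate was left out, and Csrp3 was not in these cases or without pre-heartbeat replicate 3. The groups did not overlap for 6 of 8 genes, all but Fhl1 and Pdlim5, against 5.38% of probes that did not overlap with the post-heartbeat group higher. Within both slides, all post-heartbeat arrays exceeded all pre-heartbeat arrays for 8 of 8 genes, against 12.2% of probes. This rests on the only pre-heartbeat array of slide 1, the lowest array for 8 of 8 genes, and the only post-heartbeat array of slide 2, the highest for 7 of 8. The blocked fit was not repeated with single arrays left out. With 3 arrays per group, the smallest two-sided exact permutation p is 0.1. These samples are whole tissue, in which more cells of a type and more RNA per cell cannot be told apart.

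**Figure D1:**
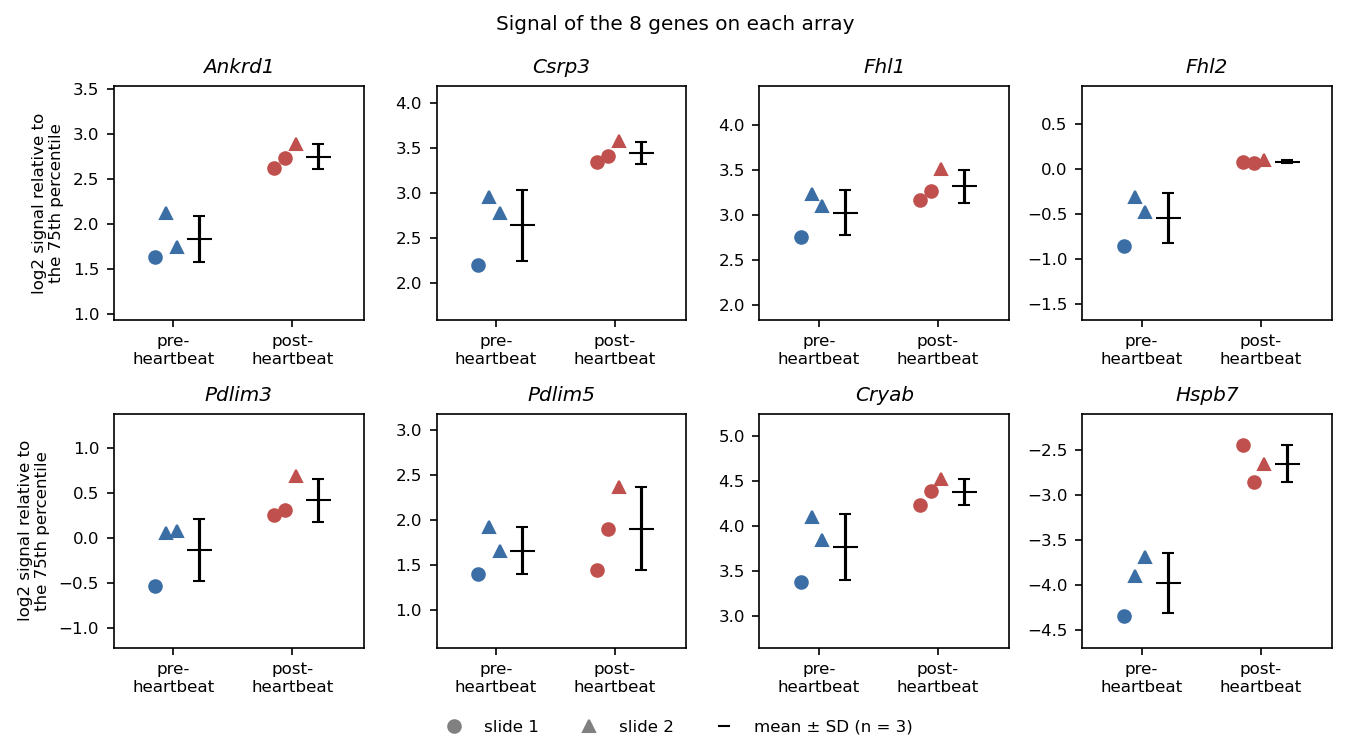
Log2 signal relative to each array's 75th percentile (vertical axis) of the 8 genes on each array, with pre-heartbeat arrays in blue and post-heartbeat arrays in red. Circles are slide 1, triangles are slide 2, black bars are the mean ± SD (n = 3), and every panel spans the same range; the groups overlap only for Fhl1 and Pdlim5, and pre-heartbeat replicate 1, the blue circle, is the lowest of the 6 arrays for all 8 genes.

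Ankrd1 encodes a nuclear and sarcomeric ankyrin repeat protein that binds titin in the I-band and is a classical gene of cardiac load. Its probe covers chromosome 1, 240316831 to 240316890, minus strand (rn4 genome, as are all probe positions, from the array annotation). The log2 signal of Ankrd1 was 1.64, 2.13 and 1.75 on the pre-heartbeat arrays (replicates 1 to 3) and 2.62, 2.74 and 2.89 on post-heartbeat arrays. All 3 post-heartbeat arrays were above all 3 pre-heartbeat arrays. The means were 1.84 ± 0.26 before and 2.75 ± 0.14 after heartbeat initiation (SD, n = 3 each), giving a log2 fold change of 0.91 (SE 0.18, 1.88 fold, limma adjusted p = 0.153). In the blocked fit, Ankrd1 rose by 0.999 (SE 0.15, limma adjusted p = 0.0263, range over all alternatives 0.0263 to 0.591). The difference was 1.04 within slide 1 and 0.95 within slide 2, the most even of the 4 genes that passed in the blocked fit.

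Csrp3 encodes muscle LIM protein, which sits at the Z-disc and has been studied as part of the stretch sensor of cardiac muscle cells. Its probe covers chromosome 1, 98601873 to 98601932, also on the minus strand. Csrp3 had log2 signals of 2.20, 2.96 and 2.78 before and 3.35, 3.42 and 3.58 after heartbeat initiation. The 3 post-heartbeat arrays lay close together, and pre-heartbeat replicate 1 was well below the other pre-heartbeat arrays. The log2 fold change of Csrp3 was 0.80 (SE 0.22, 1.75 fold, limma adjusted p = 0.326), and 0.95 in the blocked fit (SE 0.16, adjusted p = 0.0332, range 0.0332 to 0.902). Within slide 1, where pre-heartbeat replicate 1 is the only pre-heartbeat array, the difference was 1.18, and within slide 2 it was 0.71.

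Fhl2 and Fhl1 encode proteins made of LIM domains alone, which bind titin in the I-band and link it to signaling kinases (Fhl1) or metabolic enzymes (Fhl2), and Fhl2 is also a transcriptional cofactor. The annotated interval of the Fhl2 probe, chromosome 9, 42326985 to 42337310, minus strand, is 10326 bases long and so exceeds the length of a probe. The log2 signal of Fhl2 was -0.85, -0.30 and -0.47 on pre-heartbeat arrays and 0.086, 0.068 and 0.10 on post-heartbeat arrays. The post-heartbeat arrays were nearly equal (SD 0.018), whereas the pre-heartbeat arrays were spread (SD 0.28). The log2 fold change of Fhl2 was 0.63 (SE 0.17, 1.54 fold, limma adjusted p = 0.333) and 0.71 in the blocked fit (SE 0.15, adjusted p = 0.0798). Fhl2 was thus in the methods' selection without passing the limma threshold in either fit.

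Fhl1 had 2 probes on the plus strand of chromosome X, at 141328888 to 141328947 on 10 spots and at 141328038 to 141328097 on 1 spot. The log2 signal of the brighter probe was 2.75, 3.23 and 3.1 before and 3.17, 3.27 and 3.52 after heartbeat initiation. The groups overlapped, since post-heartbeat replicate 1 was below pre-heartbeat replicate 2. The log2 fold change was 0.29 (SE 0.18, 95% interval -0.14 to 0.72, limma adjusted p = 0.865), and 0.41 in the blocked fit (95% interval 0.10 to 0.71, adjusted p = 0.284). The second probe of Fhl1 gave a log2 fold change of 0.25 (SE 0.23, adjusted p = 0.865), and the probes had a Pearson's r of 0.91 over the 6 arrays, as a description of 2 probes of 1 gene on shared arrays.

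Pdlim3 and Pdlim5 encode members of the PDZ-LIM family, which bind alpha-actinin at the Z-disc through the PDZ domain, and Pdlim5 also holds protein kinases and takes part in the growth of cardiac muscle cells. The tested probe of Pdlim3, on 1 spot, covers chromosome 16, 49647860 to 49647919, minus strand, and is annotated to an Ensembl transcript. The other Pdlim3 probe, annotated to a RefSeq transcript, was well above background on 0 arrays, so the values below rest on the tested probe alone. The log2 signals of the tested probe were -0.53, 0.062 and 0.080 on pre-heartbeat arrays and 0.26, 0.31 and 0.70 on post-heartbeat arrays. The groups did not overlap, but the nearest arrays of the 2 groups were closer to each other than pre-heartbeat replicate 1 was to the rest of its group. The log2 fold change of Pdlim3 was 0.55 (SE 0.22, 1.46 fold, limma adjusted p = 0.674), and in the blocked fit it was 0.72 (SE 0.13, adjusted p = 0.0449, range over all alternatives 0.0449 to 0.9999). The difference for Pdlim3 was 0.81 within slide 1 and 0.62 within slide 2.

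The probe of Pdlim5 covers chromosome 2, 240177319 to 240177378, minus strand. Pdlim5 had log2 signals of 1.39, 1.92 and 1.66 before and 1.45, 1.89 and 2.37 after heartbeat initiation. The groups overlapped widely, and both post-heartbeat arrays of slide 1 were below pre-heartbeat replicate 2. For Pdlim5 the log2 fold change was 0.25 (SE 0.26, 95% interval -0.37 to 0.86, limma adjusted p = 0.865), and 0.43 in the blocked fit (95% interval 0.018 to 0.84, adjusted p = 0.481). The value was 0.014 without post-heartbeat replicate 3, the array with the highest signal, and 0.11 without pre-heartbeat replicate 1, the array with the lowest.

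Cryab encodes alpha B-crystallin, an abundant small heat shock protein of muscle that binds desmin and titin. Its probe covers chromosome 8, 54111396 to 54111455, plus strand. For Cryab, the log2 signal was 3.37, 4.10 and 3.84 before and 4.23, 4.39 and 4.52 after heartbeat initiation. The groups did not overlap, with a gap about as wide as the distance between neighboring post-heartbeat arrays. The groups differed by a log2 fold change of 0.61 (SE 0.21, 1.52 fold, limma adjusted p = 0.538), and 0.74 in the blocked fit (SE 0.16, adjusted p = 0.0758). With an unadjusted p of 0.0559 in the Tukey HSD test, Cryab was just outside the methods' selection.

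Hspb7 encodes the cardiovascular small heat shock protein, which binds filamin C and limits the growth of thin filaments. Its probe covers chromosome 5, 160314136 to 160314195, plus strand. The log2 signal of Hspb7 was -4.35, -3.90 and -3.69 on pre-heartbeat arrays and -2.45, -2.86 and -2.66 on post-heartbeat arrays. These were low signals, still well above background on all 6 arrays, and every post-heartbeat array was higher by a margin larger than the range within either group. The log2 fold change of 1.32 (SE 0.21, 2.50 fold, limma adjusted p = 0.0959) was the largest among the 8 genes in this fit. Hspb7 rose by 1.41 in the blocked fit (SE 0.19, adjusted p = 0.0185, range 0.0185 to 0.404). The difference was 1.70 within slide 1 and 1.13 within slide 2. The size and rank depended on the background correction, as with normexp correction the log2 fold change was 0.83 for Hspb7, below the 0.90 of Ankrd1.

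**Figure D2:**
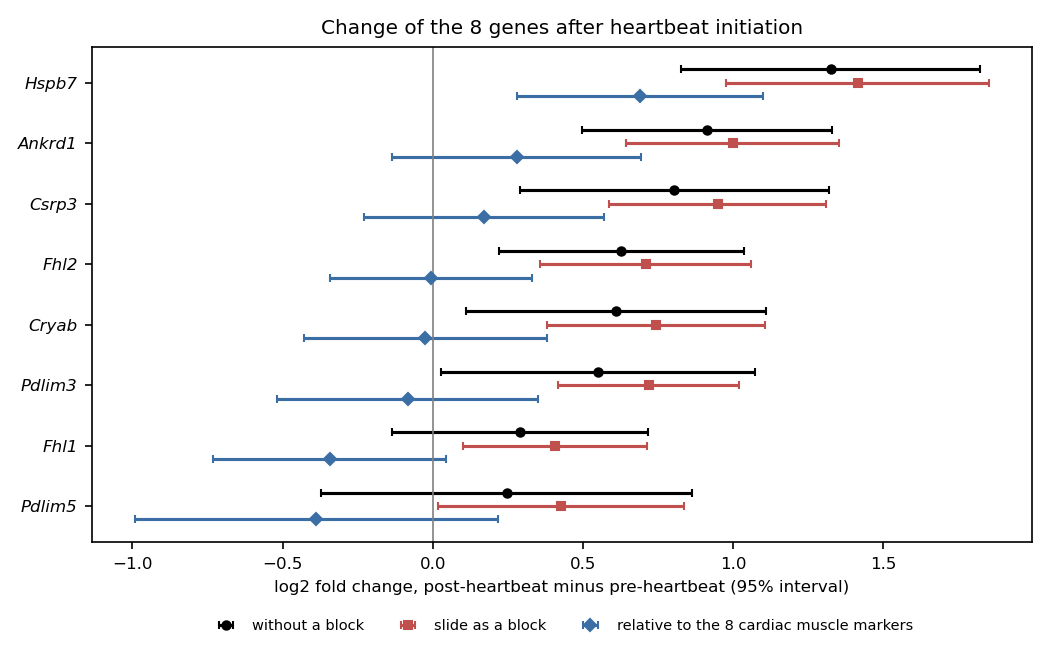
Log2 fold change of the 8 genes, post-heartbeat minus pre-heartbeat (horizontal axis), with bars for the 95% interval of limma before adjustment over probes. Black circles are the fit without a block, red squares the blocked fit, and blue diamonds the change relative to the mean of 8 cardiac muscle markers; relative to those markers the values run from -0.39 for Pdlim5 to 0.69 for Hspb7.

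Related genes, in 3 pairs, were compared between the groups by the difference of their log2 signals on each array. Hspb7 less Cryab was higher in the post-heartbeat group by 0.72, with groups that did not overlap (two-sided exact permutation p = 0.1, adjusted over the 3 pairs 0.15, n = 3 per group), but by 0.24 with normexp background correction, an alternative added after the values were seen. Fhl2 less Fhl1 was higher by 0.34, also without overlap (exact permutation p = 0.1, adjusted 0.15), with 0.46 within slide 1 and 0.14 within slide 2. Pdlim3 less Pdlim5 was higher by 0.30 with overlapping groups (exact permutation p = 0.3), and the difference was 0.54 within slide 1 but 0.046 within slide 2. With 3 arrays per group none of these tests can pass a threshold of 0.05, and the pairs were chosen with the values of the genes known.

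The 8 genes varied together over the arrays. Pre-heartbeat replicate 1 had the lowest signal of the 6 arrays for 8 of 8 genes, and post-heartbeat replicate 3 had the highest for 7 of 8, all but Hspb7. Among the 28 pairs of genes, Pearson's r over the 6 arrays was between 0.37 for Pdlim5 with Hspb7 and 0.99 for Csrp3 with Fhl2, with a median of 0.91. All pairs share the same 6 arrays, 2 groups and 2 slides, and the r values describe these arrays only. Among 10628 other genes with a symbol, those closest to the mean profile of the 8 genes were Actn2 (r = 0.99), which encodes the alpha-actinin of the cardiac Z-disc, Hspb3 (0.99), a small heat shock protein of muscle, Bik (0.99), a proapoptotic BCL2 family member, Unc45b (0.99), a myosin chaperone, and Bves (0.99), a membrane protein of cardiac and skeletal muscle. The genes closest to Ankrd1 alone were Rnf135, Pgm1, Tnfrsf12a, Tmem100 and Rassf4, each with r of 0.99 or above (0.992 for Rassf4 to 0.995 for Rnf135).

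**Figure D3:**
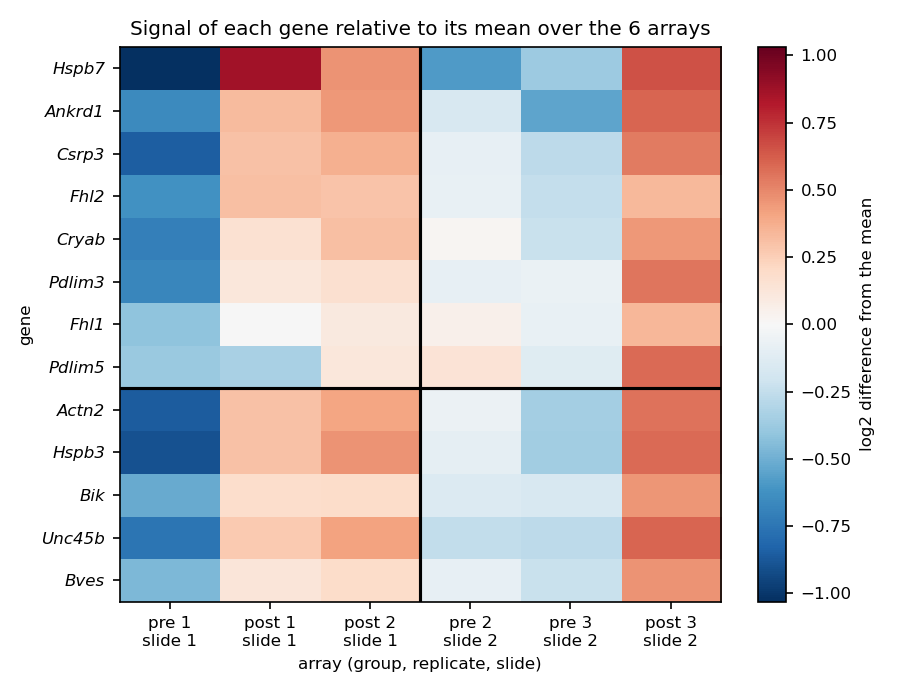
Log2 signal of each gene relative to its own mean over the 6 arrays (color), with arrays in columns ordered by slide and genes in rows. The 8 genes are above the horizontal line, ordered by log2 fold change, and the 5 genes closest to their mean profile are below it; pre-heartbeat replicate 1 is the lowest array in all 8 upper rows, and post-heartbeat replicate 3 is the highest in all of them but Hspb7.

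The tissue label was checked against markers. All 8 markers of cardiac muscle (Tnnt2, Myh6, Myl7, Myl4, Tnni1, Actc1, Nkx2-5 and Tbx5) were well above background, and their mean log2 signal was 3.67, 4.05 and 4.07 on pre-heartbeat arrays and 4.57, 4.59 and 4.53 on post-heartbeat arrays. As with the 8 genes, pre-heartbeat replicate 1 was the lowest in this mean. It was not the lowest for Tbx5 (-4.48, with -4.61 on pre-heartbeat replicate 2) or Nkx2-5. The log2 signal of Nkx2-5 was 1.91, 1.19 and 1.36 on pre-heartbeat arrays and 2.75, 2.45 and 1.28 on post-heartbeat arrays. The median log2 fold change of these markers was 0.64, close to that of the 8 genes (0.62). Myh6 and Myl4 rose in the blocked fit (2 of 8, against 1.09% of all probes called higher). Their summed linear level, relative to the 75th percentile, was 354 to 609 before and 650 to 780 after heartbeat initiation. The part of the share of cardiac muscle in the differences of the 8 genes was not tested. Relative to the mean of these markers on each array, a measure added after the values were seen, the change was 0.69 for Hspb7 (95% interval 0.28 to 1.10), with groups that did not overlap (exact permutation p = 0.1). It was 0.28 for Ankrd1 (95% interval -0.13 to 0.69) and 0.17 for Csrp3 (-0.23 to 0.57), with overlapping groups. The values of Fhl2 (-0.0062), Cryab (-0.025) and Pdlim3 (-0.084) were near 0, with 95% intervals that lay between -0.52 and 0.38. The value of Fhl1 was -0.34 (95% interval -0.73 to 0.043), with groups that did not overlap, and that of Pdlim5 was -0.39 (-0.99 to 0.22), with -0.64 within slide 1 and 0.11 within slide 2. For Hspb7 the within-slide values were 0.78 and 0.66. On this scale the median of all probes was -0.67. Values on it were not computed with normexp correction, which lowered the unscaled log2 fold change of Hspb7 from 1.32 to 0.83.

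Markers of other cells were examined in the same way. Of all tested probes, 44.7% had a higher mean and 1.09% were called higher in the blocked fit. For smooth muscle, whose genes early cardiac muscle cells also express, 5 of 5 markers had higher means (median log2 fold change 1.04), 4 of 5 rose in the blocked fit, and the summed level was 4.78 to 5.21 before and 7.82 to 10.2 after heartbeat initiation. Of 7 endothelial markers 1 had a higher mean (summed level 18.4 to 19.0 before, 13.3 to 14.7 after), and 3 of 7 had a positive difference in the blocked fit, where the median was -0.11. Kdr alone made up 13.07 to 14.7 of that sum before and 8.70 to 10.1 after (log2 fold change -0.55, adjusted p = 0.283). Of 6 markers of yolk sac endoderm 1 had a higher mean (50.2 to 52.9 before, 31.6 to 42.0 after). Of 5 markers of neural ectoderm on the array, 2 were tested and 2 were never well above background (Six3 and Hes3). Otx2, a transcription factor of the forebrain, fell by 1.56 (limma adjusted p = 0.0201), a call lost with any 1 array left out (adjusted p 0.0635 to 0.216) and without the filter on dim probes (0.0836). The summed neural level was 6.37 to 7.32 before and 2.43 to 2.98 after, most of it from Otx2, and the other tested marker, Sox2, had a log2 fold change of -0.21 (SE 0.42, adjusted p = 0.897). Of 4 skeletal muscle regulators, Myod1 and Myf6 were well above background on 0 arrays, and Myog and Myf5 on all arrays (summed level of that list 0.17 to 0.21 before, 0.18 to 0.26 after). The log2 fold change was -0.020 for Myog and 0.38 for Myf5 (limma adjusted p = 0.988 and 0.865), with overlapping groups. Of 6 tested erythroid markers 4 had higher means (2.20 to 4.10 before, 3.42 to 5.96 after), and Gata1 was well above background on 0 arrays. Among them Epor, the erythropoietin receptor gene, rose in the blocked fit (1.18, adjusted p = 0.0418, without a block 1.26 and 0.115), and Hbb, a globin gene, had a log2 fold change of 1.22 (adjusted p = 0.359) with groups that did not overlap. All 3 tested markers of paraxial mesoderm had higher means (21.4 to 23.8 before, 25.05 to 26.2 after), with Mesp2 well above background on 0 arrays, and so did 1 of 2 of definitive endoderm (0.96 to 1.32 before, 0.94 to 1.12 after), with Shh well above background on 0 arrays. The part of these differences in the values of the 8 genes was not tested.

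Partners of the 8 genes at the Z-disc and along titin were taken from a list of 24 genes, of which 20 were on the array and 16 were tested. Of these, 13 had higher means, against 44.7% of all tested probes, with a median log2 fold change of 0.70. One rose at a limma adjusted p under 0.05, Trim54, a ubiquitin ligase of the muscle-specific RING finger family that binds microtubules (log2 fold change 1.90, SE 0.14, adjusted p = 0.0172), and with any 1 array left out 0 genes of the list passed. In the blocked fit 8 of 16 rose and 0 fell, against 1.09% of all probes called higher. The 8 were Trim54, its relatives Trim63 and Trim55, Cmya5, Palld, Actn2, Nebl and Smpx. Trim63 had a log2 fold change of 1.16 (adjusted p = 0.146, blocked 0.0157), and Cmya5, which binds alpha-actinin, one of 0.95 (0.107, blocked 0.0249). The groups did not overlap for 10 of 16, all with the post-heartbeat group higher, against 5.38% of all tested probes. Ankrd2, the close relative of Ankrd1, was well above background on 0 pre-heartbeat and 2 post-heartbeat arrays and was not tested, and Myoz2 and Xirp2 were well above background on 0 arrays.

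Of the 14 other small heat shock proteins and co-chaperones, 13 were tested, with a median log2 fold change of 0.59. Higher means were found in 11 of 13, against 44.7% of all tested probes. Hspb1, the chaperone HSP27 that binds actin, rose in both fits. Its log2 signal was -2.13, -2.19 and -2.05 before and -0.47, -0.083 and -0.53 after heartbeat initiation. This gave a log2 fold change of 1.77 (SE 0.16, 3.40 fold, adjusted p = 0.0232), and it too did not pass with any 1 array left out. Hspb8, a partner of the co-chaperone Bag3, had a log2 fold change of 1.10 (adjusted p = 0.0501, blocked 0.0147) and Hspb3 one of 0.90 (0.275, blocked 0.0289). In the blocked fit 4 of 13 rose and 0 fell (Hspb1, Hspb3, Hspb8 and Unc45b), against 1.09% of all probes called higher. For 8 of 13 the groups did not overlap, all with the post-heartbeat group higher, against 5.38% of all tested probes.

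Among 21 load-responsive genes and regulators of SRF and YAP signaling, 19 were tested, with a median log2 fold change of 0.39. All 19 had higher means, against 44.7% of all tested probes. The mean log2 signal of the list was -0.55, -1.12 and -0.54 on pre-heartbeat arrays and -0.14, -0.16 and -0.23 on post-heartbeat arrays. Pre-heartbeat replicate 2, on slide 2, was thus the lowest. Within slide 1, Egr1 (-0.67), Fos (-0.15), Lats2 (-0.025) and Mkl1 (-0.013) were lower after heartbeat initiation, and the other tested genes were higher. The natriuretic peptide genes rose, Nppa by 1.84 (SE 0.15, limma adjusted p = 0.0201) and Nppb by 1.40 (SE 0.15, adjusted p = 0.0409), although 0 genes of the list passed with any 1 array left out. In the blocked fit 4 of 19 rose and 0 fell, against 1.09% of all probes called higher. Beside Nppa and Nppb, these were Acta1, the skeletal actin of the early heart (1.15, adjusted p = 0.107, blocked 0.0185), and Myh7, a slow myosin heavy chain (1.11, 0.115, blocked 0.0240). For 5 of 19 the groups did not overlap (the 4 genes above and Wwtr1, which encodes TAZ), against 5.38% of all tested probes with the post-heartbeat group higher.

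Of 28 other LIM genes of muscle and cytoskeleton, 26 were on the array and 23 were tested. Their median log2 fold change was 0.11, and -0.0045 in the blocked fit. Higher means were found in 16 of 23, against 44.7% of all tested probes. By limma 0 were called in either fit, and 2 of 23 had an unadjusted p under 0.05, near the share of all probes (6.99%). The methods' selection held 2 of 23, against 1.9% of all tested probes selected as higher. These were Csrp1, a relative of Csrp3 in smooth muscle (log2 fold change 0.64, limma adjusted p = 0.286), and Tgfb1i1, the focal adhesion protein Hic-5 (0.67, adjusted p = 0.333). Lmo7, an actin-associated LIM protein, had a log2 fold change of 0.35 (adjusted p = 0.782), and its groups did not overlap either. This held for 4 of 23, all with the post-heartbeat group higher, against 5.38% of all tested probes. Nrap, Lims2 and Fhl5 were well above background on 0 arrays. The difference between this list and the 5 LIM genes was not tested.

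**Figure D4:**
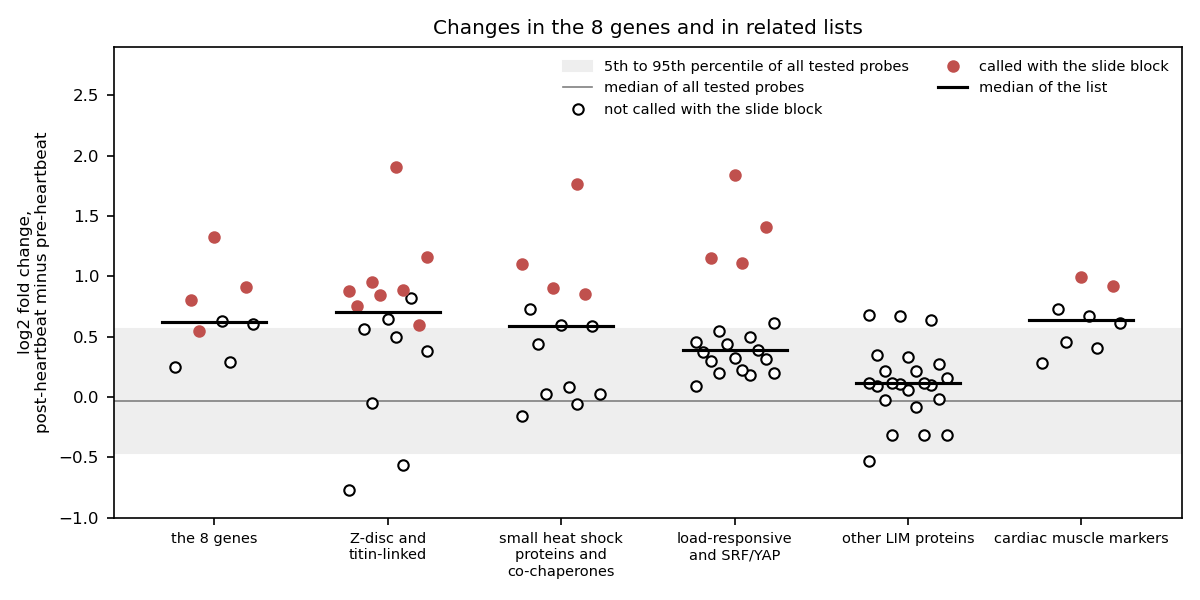
Log2 fold change, post-heartbeat minus pre-heartbeat (vertical axis), of each tested gene (points) in the 8 genes, in 4 related lists and in 8 cardiac muscle markers, without a block. Filled points passed a limma adjusted p under 0.05 in the blocked fit, black lines are list medians (0.62 for the 8 genes and 0.11 for other LIM proteins), and the gray band runs from the 5th to the 95th percentile of all tested probes (-0.46 to 0.56) around their median of -0.03.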

How the data were processed

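Total RNA of rat heart primordia was labeled with cyanine 3 and hybridized to 1-color Agilent rat arrays. The authors deposited the scanner output of each array, in which Agilent Feature Extraction 10.7.3.1 had subtracted the background, and the processed signal, an intensity not yet normalized between arrays, was used here. The authors also deposited linear ratios, which GeneSpring had shifted by the 75th percentile and set against a baseline per probe, and these served as an alternative. The baseline cancels between groups.

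Control spots and spots marked as outliers were left out. The 75th percentile (1142.82 to 1694.14 intensity units) of each array was subtracted on the log2 scale, and spots were averaged per probe. The tests covered the 19300 of 30367 probes for which either group had all 3 arrays well above background, and 2 of them had missing values. A gene was represented by its brightest tested probe. Groups were compared with limma 3.58.1 in R 4.3.3, p was adjusted over all tested probes by the Benjamini-Hochberg method at a threshold of 0.05, and intervals were 95% intervals. The Tukey HSD selection of the methods equals, with 2 groups, the pooled comparison of means. Single differences were tested by a two-sided exact permutation over the 20 assignments of the arrays.

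The members and gene lists were chosen with earlier results of these data known. All members were named, with the listed genes past the limma threshold, the 3 largest non-overlapping differences of each list, and the 5 genes closest in profile; other genes were named after their values were seen. Alternatives were the slide or the replicate number as a block, normexp (offset 50), quantile normalization, the percentile over probes detected on all arrays, other filters, the ratios, an intensity trend, a fold threshold of 2, the mean of a gene's probes, and each array left out. The fit was also run on simulated data with independent noise for each probe and array and without slide differences. That run cannot show how the slides affect the fit. The number of arrays limits the precision.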

Additional observations from a re-analysis of the deposited data

How the results depend on the processing

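The 8 genes kept the sign of their difference under all 17 alternatives chosen at the outset. The replicate block, the filters, the intensity trend and the methods' test leave the difference itself unchanged, so its sign could not change there. The mean of a gene's probes could change it only for Fhl1. Of 136 values, 131 stayed on their side of the limma threshold. The other 5 passed it, 4 of them with the slide as a block. Hspb7 also passed it with the replicate number as a block (log2 fold change 1.32, limma adjusted p = 0.0440). Same-numbered arrays correlated at 0.65, -0.28 and 0.49 in their deviations from the group means. The arrays numbered 1 shared a slide, as did those numbered 3, while those numbered 2 did not. These values follow the slide, so they cannot show whether the numbers pair the samples. With the replicate number as a block, 110 probes were higher and 56 lower, 1 of the 8 genes was higher, and 2 small heat shock and 4 load-responsive genes were. Without a block, 24 probes were higher and 4 lower. The slide as a block gave 210 higher and 81 lower, with 4 of the 8 genes, 8 Z-disc, 4 small heat shock and 4 load-responsive genes higher. Probes higher numbered 11 with quantile normalization, 43 with normexp, 10 with the ratios and 38 with an intensity trend, which gave 7 lower. No filter on dim probes, which tests more probes, left 1 higher and 0 lower, and 0 genes of the Z-disc, small heat shock and load-responsive lists. The methods' test with Benjamini-Hochberg adjustment gave 0 higher and 0 lower and 0 in each list (1326 probes unadjusted). A filter on all 6 arrays gave 2 small heat shock genes, and quantile normalization and the ratios left 1 load-responsive gene. With any 1 array left out, 0 to 1 probes were higher, 0 to 1 lower, and 0 genes of each list passed. The methods' selection then held 2 to 5 of the 8 genes, with Ankrd1 and Hspb7 in each case, and 2 without pre-heartbeat replicate 1 or any post-heartbeat replicate. A fold threshold of 2 left 1. Relative to the cardiac muscle markers, an alternative added after the values were seen, the sign reversed for Fhl1 (-0.34), Pdlim5 (-0.39), Pdlim3 (-0.084), Cryab (-0.025) and Fhl2 (-0.0062), and the median of all probes moved to -0.67. The cause of these changes was not tested.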
